A study of Homo sapiens with 12 samples.

Results

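Gene expression in T1 (MCFT1) was compared with that in A10 (MCF10A) across all genes, using the 3 T1 and 3 A10 libraries of a series of 12. The series took DNA, RNA and peptides from single preparations of 4 human breast epithelial lines to judge the quality and reproducibility of that preparation. A10 is a mammary epithelial line that does not form tumours and is the parent of the others. T1 is its derivative that carries an introduced mutant HRAS and was re-established in culture after growth as a xenograft, and the series design calls it atypical hyperplasia. In both groups the RNA came from the same multiomics workflow, was treated with DNase I and was made into libraries with an NEBNext Ultra kit; no drug, dose or time distinguished the libraries. Each group is 1 cell line, so a difference between the groups is a difference between these 2 lines and not between grades of lesion. The labels call the 3 libraries of a line biological replicates without saying that they were separate cultures, so p-values measure the spread between these libraries, which may be technical.

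As background, RAS proteins pass signals from growth factor receptors to the ERK kinases, and activated RAS drives proliferation, survival and changes of shape in mammary epithelium. A mammary duct has an inner luminal layer, which carries simple keratins such as KRT8 and tight junctions, and an outer basal or myoepithelial layer, which carries KRT5, KRT14, TP63 and contractile proteins. MCF10A cells in culture have mostly basal features with some mesenchymal genes, and epithelial regulators such as the grainyhead factors hold the junctional programme in place.

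Libraries held 22274719 to 35730423 estimated counts, and 13316 to 13906 genes reached 10 counts in a library. Values are CPM (counts scaled to a common library size by TMM, a method that assumes most genes do not change), listed for replicates 1 to 3 in order or as mean ± SD over 3 libraries (n = 3). The 4 cytoplasmic rRNA rows took 1.65% to 2.10% of counts in 5 libraries and 7.76% in T1 replicate 1. Pearson's r across genes, which are not independent replicates, was 0.984 to 0.988 within a line and 0.877 to 0.881 between the lines. The series design calls the lines triple-negative. ESR1 stood at 0.742 ± 0.259 CPM in A10 and 0.941 ± 0.266 CPM in T1 (adjusted p = 0.559). PGR had no count in either line, and ERBB2 was detected in both and higher in T1, as given below. The introduced gene was checked first. HRAS stood at 65.3, 65.7 and 73.9 CPM in A10 and 180.00, 167 and 155 CPM in T1 (edgeR quasi-likelihood test, log2 fold change 1.29, SE 0.07, adjusted p = 6.94e-14), so every T1 library lay above every A10 library. Counts per gene do not separate the introduced HRAS from the cells' own.

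Markers of other cell types were read beside the epithelial ones, as bulk RNA cannot tell fewer cells of a type from less RNA per cell. Of 14 leukocyte markers, PTPRC, CD3E, CD3D, MS4A1, FCGR3A and NKG7 were among those with no count in either line, and the summed level of all 14 was 80.0 to 84.7 CPM in A10 and 113 to 122 CPM in T1, most of it CD14. Of the 5 that passed the filter, 3 rose and none fell. Of 8 endothelial markers, TIE1 and CLDN5 had no count in either line, while PECAM1, an adhesion protein of endothelium and blood cells, rose from 2.21 ± 0.313 to 90.4 ± 3.76 CPM (log2 fold change 5.38). KDR, the VEGF receptor, fell from 6.15 ± 1.44 to 0.365 ± 0.169 CPM. The 8 muscle and pericyte markers summed to 2.08 to 4.29 CPM in A10 and 1.90 to 2.71 CPM in T1. The 12 neural and glial markers summed to 86.7 to 101 CPM in A10 and 37.6 to 40.2 CPM in T1, nearly all of it the tubulin TUBB3. The 10 fibroblast markers summed to 242 to 252 CPM in A10 and 55.7 to 58.4 CPM in T1, with the 5 that passed the filter all lower in T1. Of these, DCN and POSTN were near 0 in T1, so they passed the filter through A10 and could only fall. THY1, with counts in T1 and none in A10, did not pass it. Their part in the results below was not tested.

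Of 29744 rows, 13770 genes had enough counts to be tested and 8163 of them (59.3%) differed between the lines at a Benjamini-Hochberg adjusted p under 0.05, which is the meaning of rose, fell and called below. In T1, 3979 genes (28.9% of those tested) rose and 4184 (30.4%) fell. At least a 2-fold difference was seen in 1283 called genes that rose (9.32%) and 1335 that fell (9.69%), out of 2618 (19%). The median log2 fold change over all tested genes was -0.02, and in 8789 of them (63.8%) the 3 values of one line did not overlap those of the other. With so many genes called, a list of genes is read below against 28.9% and 30.4% and against that median.

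**Figure D1:**
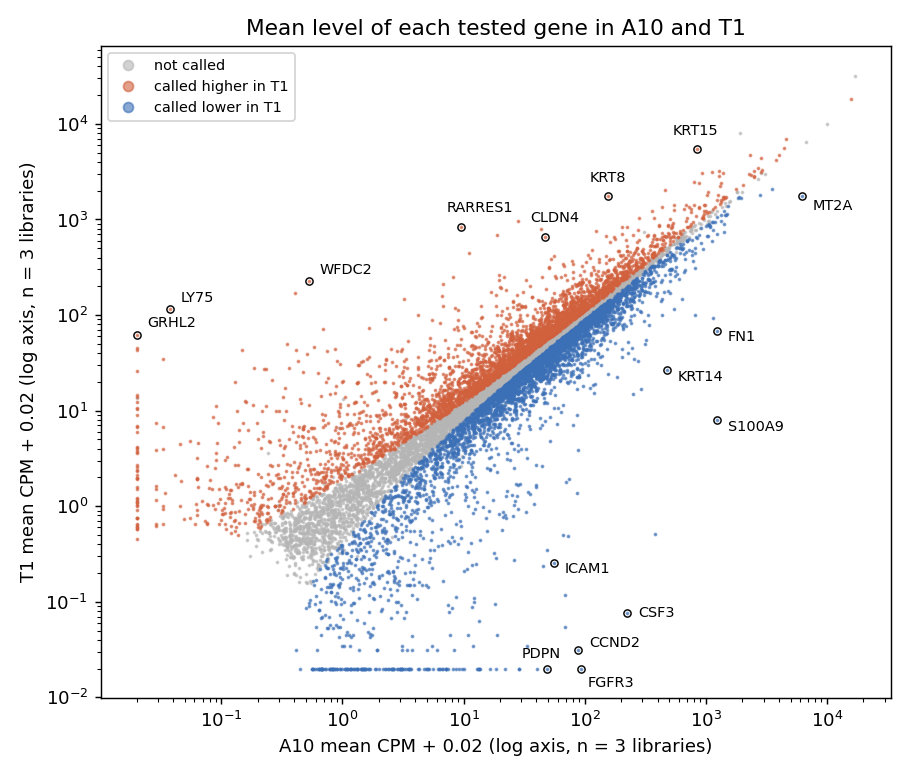
Mean level of each of the 13770 tested genes in A10 (x axis) and T1 (y axis), in CPM plus 0.02 on log axes, 3 libraries per line; orange genes were called higher in T1, blue ones lower and grey ones not called. The vertical row of points at the left edge and the horizontal row at the bottom are genes with no count in 1 line, such as GRHL2 and FGFR3.

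Among genes that reached 10 CPM, the largest rises in T1 were in genes that A10 barely expressed or did not express. GRHL2, a grainyhead transcription factor of epithelial junctions, stood at 0 CPM in each A10 library and 63.8, 59.3 and 64.04 CPM in T1, at least 1805-fold higher against the level of 3 counts over a line (adjusted p = 7.38e-21). The phospholipid transporter gene ATP10A stood at 0 CPM in each A10 library and 49.6, 43.1 and 41.6 CPM in T1, at least 1296-fold higher. EPDR1, which encodes a secreted lipid-binding protein, stood at 0 CPM in each A10 library and 44.8, 41.5 and 42.2 CPM in T1, at least 1239.6-fold higher. In all 3, no A10 library held a count while the T1 libraries lay close together. LPL, the lipase that frees fatty acids from lipoproteins, was at least 743-fold higher, and CLDN8, a tight junction claudin, at least 304-fold higher. The transcription factor genes TBX18 (at least 420.04-fold) and ESX1 (at least 298-fold) and the translation termination gene GSPT2 (at least 358-fold) were likewise without a count in A10. LY75, an endocytic receptor, stood at 0.0532, 0 and 0 CPM in A10 and 113, 112 and 123 CPM in T1, a ratio of 5016-fold (exact 95% counting interval 1388 to 41424). The secreted proteins WFDC2 (an antiprotease-like protein of ductal epithelium, from 0.507 ± 0.217 to 226 ± 10.4 CPM) and TCN1 (a vitamin B12 carrier, from 0.387 ± 0.334 to 169 ± 7.96 CPM) also rose.

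The largest falls were as complete. FGFR3, a fibroblast growth factor receptor, stood at 82.4, 96.6 and 98.4 CPM in A10 and 0 CPM in each T1 library, at least 2455-fold lower in T1 (adjusted p = 3.25e-21). CCND2, the D-type cyclin 2 gene, stood at 90.4, 83.8 and 90.8 CPM in A10 and 0, 0.0335 and 0 CPM in T1, a ratio of 7070.1-fold (exact 95% counting interval 1269 to 279288). CSF3, which encodes the granulocyte growth factor G-CSF, stood at 203, 238 and 230.05 CPM in A10 and 0, 0.167 and 0 CPM in T1 (log2 fold change -11.70, SE 0.19, adjusted p = 1.28e-22). The T1 libraries of FGFR3 held no count, and CCND2 and CSF3 each had counts in T1 replicate 2 alone. PDPN, a mucin-type membrane protein of basal cells, was at least 1299-fold lower and the antimicrobial psoriasin gene S100A7 at least 1062-fold lower, although S100A7 shares sequence with S100A7A. The propeptide gene PCSK1N (at least 766-fold), the macroH2A histone gene H2AFY2 (at least 763-fold), the ETS transcription factor gene FLI1 (at least 359.8-fold), the glycosyltransferase gene LARGE (at least 358-fold), PGBD5 (at least 583-fold), C2orf43 (at least 491-fold) and ATP8B2 (at least 354-fold) also had no count in T1.

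Among genes of at least 500 CPM in 1 line, the largest rises were in surface and secreted products. RARRES1, a retinoid-responsive gene, rose from 9.57 ± 0.626 to 839 ± 16.8 CPM (log2 fold change 6.46). The prominin PROM2 rose from 18.8 ± 1.27 to 683 ± 13.9 CPM and the surface protein PSCA from 27.9 ± 2.61 to 959.98 ± 29.9 CPM. On the falling side, the calcium-binding alarmin gene S100A9 stood at 1215, 1196 and 1326 CPM in A10 and 9.39, 8.67 and 5.79 CPM in T1 (log2 fold change -7.28, SE 0.14, adjusted p = 2.30e-12). FN1, the fibronectin gene, stood at 1169, 1354 and 1155 CPM in A10 and 64.8, 72.1 and 69.4 CPM in T1 (log2 fold change -4.16, SE 0.07, adjusted p = 3.63e-23). The chloride channel regulator CLCA2, a gene of basal epithelium, fell from 549 ± 18.8 to 116 ± 4.22 CPM. The intermediate filament gene VIM fell from 807 ± 23.97 to 99.9 ± 2.71 CPM. Each of these 4 was lower in every T1 library than in any A10 library.

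**Figure D2:**
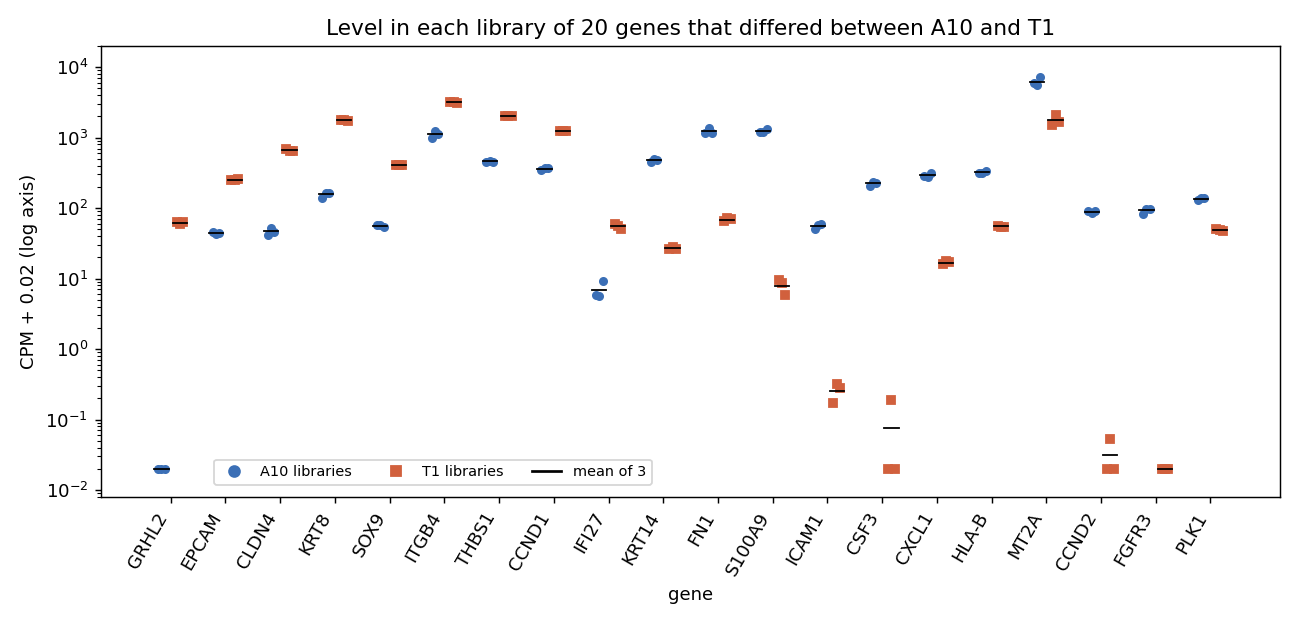
CPM plus 0.02 (log axis) in each library for 20 named genes; blue circles are the 3 A10 libraries, orange squares the 3 T1 libraries and bars their means. The lines do not overlap for any of the 20, and points at the bottom edge are libraries without a count, as for GRHL2 in A10 and FGFR3 in T1.

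Most regulators of epithelial identity rose. Of 20 listed, 18 passed the filter, 16 rose and 2 fell, with a median log2 fold change of 1.30. OVOL1 and OVOL2, zinc finger repressors of mesenchymal genes, rose from 1.82 ± 0.654 to 15.7 ± 1.74 CPM and from 5.13 ± 0.962 to 21.3 ± 1.14 CPM. ESRP1, the splicing factor that sets epithelial isoforms, rose from 57.6 ± 4.04 to 245 ± 3.34 CPM (log2 fold change 2.09). RAB25, a GTPase of epithelial membrane recycling, rose from 4.22 ± 0.08797 to 100.3 ± 4.49 CPM, and the ETS factor ELF3 rose from 57.1 ± 5.05 to 258 ± 7.94 CPM. GRHL3, a grainyhead factor of the epidermal barrier, was among the falls, from 45.5 ± 4.68 to 15.6 ± 0.754 CPM. The grainyhead genes therefore moved in both directions, as GRHL1 rose from 4.15 ± 0.446 to 15.1 ± 0.361 CPM.

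Most tight junction genes rose too. Of 24 claudins and scaffold genes, 18 passed the filter, 14 rose and 2 fell, with a median log2 fold change of 0.67. CLDN4 stood at 41.98, 51.6 and 46.3 CPM in A10 and 684, 644 and 650.5 CPM in T1 (log2 fold change 3.83, SE 0.07, adjusted p = 1.28e-22). CLDN7 rose from 111 ± 6.26 to 397 ± 24.7 CPM. The cytoplasmic plaque gene CGN rose from 3.33 ± 0.305 to 35.05 ± 3.43 CPM. TJP3, a scaffold of the same plaque, rose from 6.38 ± 0.888 to 30.3 ± 1.33 CPM. F11R, which encodes the junctional adhesion molecule JAM-A, fell from 353 ± 5.83 to 215 ± 7.97 CPM. Of 13 desmosome genes, whose products anchor keratin filaments, 10 passed the filter, 5 rose and 2 fell, with a median log2 fold change of 0.16. DSC2 rose from 47.5 ± 4.28 to 187 ± 2.43 CPM and DSC3 fell from 252 ± 7.79 to 145 ± 8.08 CPM. PERP stood at 1045 ± 50.7 CPM in A10 and 1095 ± 52.9 CPM in T1 (adjusted p = 0.299). Among classical cadherins, E-cadherin (CDH1) rose from 331 ± 17.6 to 681 ± 24.8 CPM. N-cadherin (CDH2) fell from 28.01 ± 0.748 to 18.7 ± 0.783 CPM and P-cadherin (CDH3) fell from 558 ± 32.4 to 379 ± 9.76 CPM.

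Transcription factors linked to epithelial-mesenchymal transition split: of 14 listed, 11 passed the filter, 2 rose and 5 fell, with a median log2 fold change of -0.25. ZEB1, a repressor of E-cadherin, fell from 4.31 ± 0.492 to 0.479 ± 0.268 CPM. Its relative ZEB2 fell from 5.67 ± 0.184 to 1.099 ± 0.458 CPM. SNAI2, the repressor also called Slug, fell from 54.9 ± 2.66 to 28.3 ± 1.32 CPM. The factors that rose are also known outside that transition: SOX9 acts in mammary progenitors and FOXC1 in basal-like breast cells. SOX9 stood at 56.7, 57.3 and 54.5 CPM in A10 and 406, 413 and 414 CPM in T1 (log2 fold change 2.87, SE 0.06, adjusted p = 5.69e-22). FOXC1 rose from 33.6 ± 1.77 to 99.1 ± 5.48 CPM. ZEB1, ZEB2 and SNAI2 were thus lower in T1 and SOX9 and FOXC1 higher, with no overlap between the lines for any of the 5.

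Most keratin genes rose, while the basal keratins KRT14 and KRT5 fell. Of 5 basal epithelial markers, KRT5, KRT14 and TP63 fell while KRT17 and ITGA6 rose. Their summed level was 5832 to 6207 CPM in A10 and 4526 to 4836 CPM in T1. All 5 luminal markers (KRT8, KRT18, EPCAM, KRT19 and GATA3) rose, summing to 561 to 621 CPM in A10 and 3063 to 3167 CPM in T1. Of 26 type II keratins, 10 passed the filter, 8 rose and 2 fell, with a median log2 fold change of 1.37. Of 28 type I keratins, 11 passed the filter, 9 rose and 1 fell, with a median log2 fold change of 1.48. KRT8 and its partner KRT18, the simple keratins, rose from 156 ± 13.9 to 1751 ± 46.4 CPM and from 371 ± 17.997 to 1036 ± 23.99 CPM. KRT15, a keratin of basal progenitors, stood at 794, 882 and 881 CPM in A10 and 5580.2, 5463 and 5157 CPM in T1 (log2 fold change 2.66, SE 0.06, adjusted p = 2.27e-21), and the stress keratin KRT16 rose from 52.6 ± 1.29 to 383 ± 23.03 CPM. KRT14 stood at 452, 498 and 482 CPM in A10 and 25.9, 28.3 and 25.996 CPM in T1 (log2 fold change -4.16, SE 0.07, adjusted p = 1.37e-23). KRT5 fell less, from 3545 ± 162 to 2074 ± 103 CPM (log2 fold change -0.77), so the basal keratin pair KRT5 and KRT14 did not move in step. KRT6B rose from 19.7 ± 2.21 to 264 ± 1.503 CPM, but KRT6A and KRT6B are near-identical copies whose reads can be split between them.

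In the lists of basal and of luminal regulators more genes rose than fell. Of 15 basal regulators, 11 passed the filter, 7 rose and 3 fell, with a median log2 fold change of 0.36. TP63, the master factor of basal cells, fell from 113 ± 2.25 to 44.1 ± 1.98 CPM. SOX15 fell from 88.5 ± 7.97 to 3.84 ± 0.866 CPM. IRX1, a homeobox gene, rose from 13.2 ± 1.87 to 39.8 ± 2.004 CPM. Of 20 luminal transcription factors and hormone receptors, 15 passed the filter, 9 rose and 2 fell, with a median log2 fold change of 0.35. GATA3, needed for luminal fate, rose from 27.03 ± 4.78 to 85.1 ± 3.79 CPM. FOXA1, which opens chromatin for hormone receptors, rose from 15.8 ± 1.25 to 52.8 ± 2.99 CPM. FOXI1, a factor of ion-transporting cells, stood at 0.0266, 0 and 0 CPM in A10 and 6.88, 8.302 and 6.82 CPM in T1, a ratio of 642-fold (exact 95% counting interval 115 to 25396). Of 14 myoepithelial contractile genes, 11 passed the filter, 0 rose and 8 fell, with a median log2 fold change of -0.43. The actin-binding gene TAGLN stood at 81.3, 87.1 and 88.4 CPM in A10 and 1.35, 1.57 and 1.17 CPM in T1 (log2 fold change -5.95, SE 0.12, adjusted p = 3.83e-22), and the myosin light chain gene MYL9 fell from 73.5 ± 4.76 to 1.89 ± 0.576 CPM. Smooth muscle actin, ACTA2, stood at 28.03 ± 2.76 CPM in A10 and 28.2 ± 1.68 CPM in T1 (adjusted p = 0.917), so the contractile genes did not fall together.

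Secreted and membrane products of glandular and cornifying epithelium gave some of the widest differences. Of 23 mucin and CEACAM genes, 11 passed the filter, 10 rose and 0 fell, with a median log2 fold change of 4.69. CEACAM1, an adhesion molecule of the carcinoembryonic antigen family, stood at 9.13, 6.504 and 8.87 CPM in A10 and 241, 259 and 255 CPM in T1 (log2 fold change 4.93, SE 0.09, adjusted p = 1.28e-22). MUC16, the membrane mucin known as CA125, rose from 22.3 ± 2.81 to 184 ± 3.36 CPM, and the gel-forming mucin gene MUC5AC from 0.165 ± 0.09197 to 27.9 ± 3.22 CPM. MUC5B, of the same kind, had 1 count in A10, a ratio of 2994-fold (exact 95% counting interval 537 to 118287). All the called members of this family were higher in T1. Members near 0 in A10, such as MUC5AC and MUC5B, passed the filter through T1 alone and so could only rise. The counts and the median above rest partly on such members. CEACAM genes share sequence, so reads can be split among them. Of 15 kallikrein proteases, which activate one another in skin shedding, 9 passed the filter, 5 rose and 2 fell, with a median log2 fold change of 0.63. KLK5 rose from 43.3 ± 0.167 to 789 ± 19.6 CPM and KLK7 from 125 ± 3.19 to 751 ± 20.3 CPM. KLK6 rose from 0.394 ± 0.0536 to 42.7 ± 0.725 CPM. KLK14 fell from 26.2 ± 4.29 to 0.256 ± 0.206 CPM. All 9 tested kallikreins lie within 1 cluster on chromosome 19, so members of the same cluster moved in opposite directions. The cluster lies in a stretch where 308 of 497 genes rose, with a median log2 fold change of 0.50 (given under position below).

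S100 genes went the other way: of 20 listed, 14 passed the filter, 2 rose and 11 fell, with a median log2 fold change of -0.54. S100A8, the partner of S100A9, stood at 405, 326 and 419.6 CPM in A10 and 0.676, 0.536 and 0.259 CPM in T1 (log2 fold change -9.57, SE 0.16, adjusted p = 9.46e-18). S100A4 fell from 28.7 ± 0.236 to 12.6 ± 0.342 CPM. S100A2 fell from 1129.6 ± 128 to 599 ± 143 CPM (adjusted p = 0.0197), a call that was lost without A10 replicate 1 (adjusted p = 0.068), A10 replicate 3 (0.064) or T1 replicate 2 (0.065) and with all 12 libraries fitted (0.093). S100A10, the annexin A2 ligand, stood at 769.9 ± 39.6 CPM in A10 and 719 ± 12.4 CPM in T1 (adjusted p = 0.111). Of the 14, 13 lie on the long arm of chromosome 1, within a stretch where most genes were lower in T1 (given under position below), and 11 of those 13 fell. The exception elsewhere in the genome, S100P, rose from 6.67 ± 0.0781 to 159 ± 26.2 CPM. Of 13 clade B serpins, protease inhibitors of squamous cells, 9 passed the filter, 3 rose and 4 fell, with a median log2 fold change of 0.09. SERPINB13 fell from 28.1 ± 1.93 to 0.918 ± 0.248 CPM and SERPINB1 rose from 66.02 ± 6.74 to 169 ± 4.44 CPM.

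Extracellular matrix genes fell more often than they rose. The summed level of the fibroblast marker list fell too, but that list is itself largely made of matrix genes. Of 34 collagen genes, 22 passed the filter, 5 rose and 13 fell, with a median log2 fold change of -0.77. The type VI chain COL6A1 fell from 24.4 ± 1.94 to 4.51 ± 0.762 CPM. COL8A1, a short network-forming chain, fell from 36.2 ± 2.29 to 11.3 ± 0.466 CPM. COL18A1, a basement membrane chain, rose from 19.6 ± 3.56 to 41.8 ± 3.61 CPM. Of 33 matricellular and fibre glycoproteins, 24 passed the filter, 7 rose and 12 fell, with a median log2 fold change of -0.24; without T1 replicate 3 that median was -0.63. Decorin (DCN), a small proteoglycan, stood at 72.5, 70.2 and 76.9 CPM in A10 and 0.789, 0.368 and 0.259 CPM in T1 (log2 fold change -7.25, SE 0.16, adjusted p = 4.07e-21). Periostin (POSTN) fell from 65.99 ± 2.95 to 0.483 ± 0.339 CPM. The fibrillin FBN2 fell from 156 ± 8.203 to 24.1 ± 1.77 CPM. THBS1, the matrix glycoprotein thrombospondin 1, ran against the list. It stood at 457, 473 and 455 CPM in A10 and 1996, 2017 and 2060.1 CPM in T1 (log2 fold change 2.13, SE 0.05, adjusted p = 1.81e-20). DCN and POSTN are also 2 of the 10 fibroblast markers, and COL1A1, COL1A2, COL3A1 and LUM on that list are matrix genes as well. The fall of the fibroblast list is therefore not a separate observation. The part of other cells in these falls was not tested.

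Receptors for the matrix were divided. Of 25 integrin subunits, 19 passed the filter, 9 rose and 8 fell, with a median log2 fold change of 0.15. ITGB4, the beta 4 chain of hemidesmosomes, stood at 987, 1250.3 and 1134 CPM in A10 and 3213, 3234 and 3054 CPM in T1, 2.82-fold higher (adjusted p = 1.85e-15). Other beta chains rose with it, ITGB8 from 67.6 ± 5.54 to 162 ± 9.47 CPM and ITGB5 from 153 ± 8.41 to 288 ± 10.4 CPM. The alpha chain ITGA4 fell from 8.58 ± 0.508 to 0.0911 ± 0.0867 CPM. ITGA10, a collagen receptor chain, fell from 14.5 ± 3.03 to 0.967 ± 0.187 CPM. Of 12 laminin chains, 10 passed the filter, 4 rose and 5 fell, with a median log2 fold change of -0.23. LAMB3, a chain of the laminin that ITGB4 binds, rose from 1259 ± 87.6 to 1788 ± 43.5 CPM. LAMA1 fell from 11.8 ± 1.49 to 1.47 ± 0.736 CPM. LAMA4, usual in vessels and muscle, rose from 0.214 ± 0.229 to 27.4 ± 1.68 CPM. Among 22 matrix metalloproteinases and their TIMP inhibitors, 15 passed the filter, 6 rose and 6 fell, with a median log2 fold change of -0.57; among members of at least 1 CPM in 3 libraries that median was -0.04. MMP7, an epithelial protease, rose from 3.15 ± 0.718 to 22.6 ± 1.77 CPM. The gelatinase MMP2 rose from 29.4 ± 3.45 to 99.3 ± 5.74 CPM. MMP14, which activates pro-MMP2, fell from 516 ± 40.9 to 296 ± 12.2 CPM. In plasminogen activation, both activators fell, PLAU from 437 ± 4.79 to 148 ± 11.4 CPM and PLAT from 139 ± 9.24 to 37.4 ± 2.22 CPM, while the urokinase receptor PLAUR rose from 53.5 ± 6.42 to 150.03 ± 2.97 CPM. In the lysyl oxidase family, which crosslinks collagen, LOXL1 rose from 8.89 ± 1.103 to 37.02 ± 0.949 CPM and LOXL2 fell from 95.4 ± 3.86 to 27.1 ± 1.703 CPM.

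**Figure D3:**
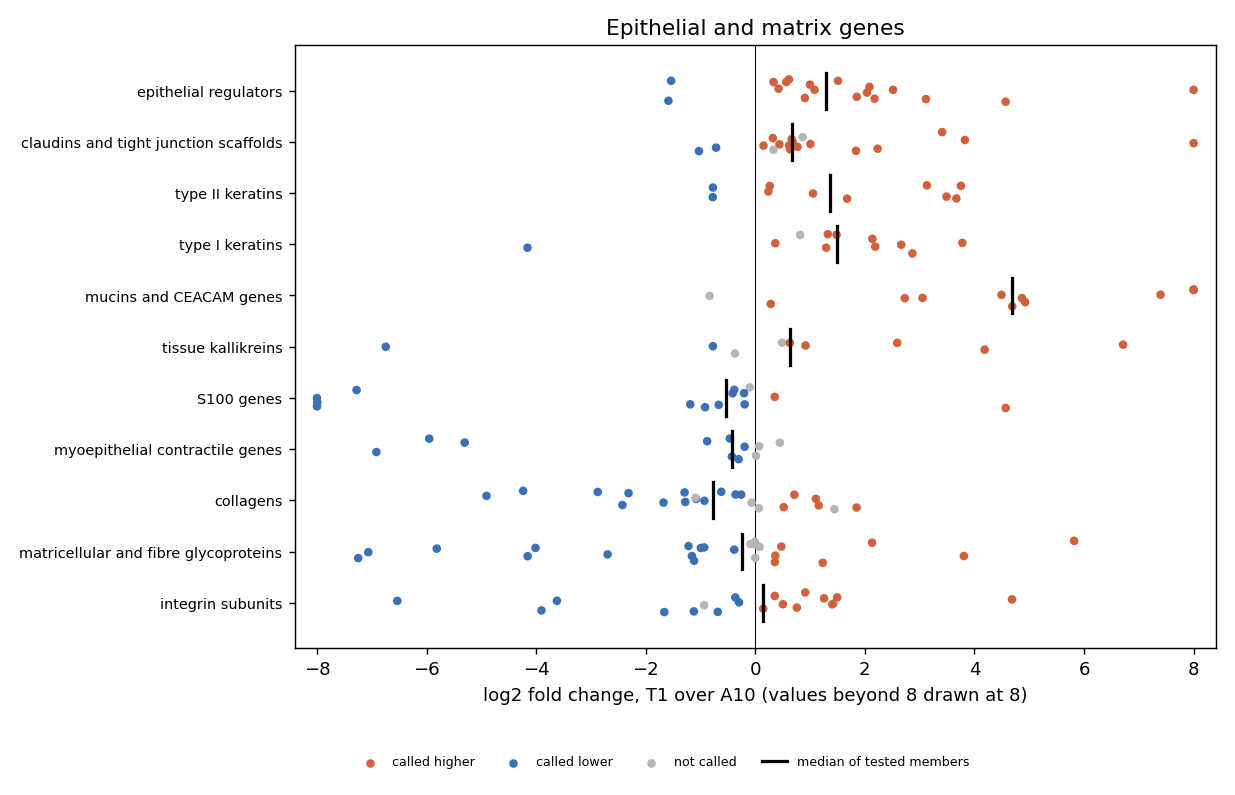
Log2 fold change (T1 over A10) of each tested member of 11 epithelial and matrix gene lists, 1 point per gene; orange points were called higher, blue ones lower and grey ones not called, and black bars mark list medians. Mucin and CEACAM genes lie farthest to the right with a median of 4.69, and collagens have a median of -0.77. Some of the mucin genes passed the filter through T1 alone.

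Receptors and ligands of growth factor pathways changed unevenly. Of 14 ERBB receptors and ligands, 12 passed the filter, 9 rose and 1 fell, with a median log2 fold change of 0.69. The receptor ERBB2 stood at 78.2, 82.6 and 86.5 CPM in A10 and 215, 219.7 and 198 CPM in T1 (log2 fold change 1.36, SE 0.06, adjusted p = 3.78e-15). ERBB3 rose from 7.39 ± 1.03 to 38.7 ± 4.89 CPM. Of the ligands, HBEGF rose from 71.4 ± 1.72 to 234 ± 1.46 CPM and AREG from 462 ± 23.9 to 670.2 ± 10.2 CPM. The neuregulin NRG1 fell from 6.19 ± 1.24 to 3.82 ± 0.291 CPM. Of 19 ERK feedback genes, 19 passed the filter, 10 rose and 5 fell, with a median log2 fold change of 0.39. The ERK phosphatase DUSP4 rose from 116 ± 4.46 to 478 ± 12.8 CPM and SPRY2 from 24.8 ± 1.45 to 65.5 ± 2.82 CPM. Feedback genes did not all rise: DUSP1 fell from 100.4 ± 2.86 to 61.1 ± 3.58 CPM and DUSP7 from 134 ± 10.7 to 85.2 ± 4.54 CPM. Of 14 AP-1 and EGR genes, which respond early to ERK, 14 passed the filter, 7 rose and 2 fell, with a median log2 fold change of 0.39. FOS rose from 23.5 ± 0.409 to 102 ± 2.91 CPM and EGR1 from 94.9 ± 5.63 to 237 ± 5.83 CPM. JUN stood at 69.9 ± 7.35 CPM in A10 and 72.1 ± 6.33 CPM in T1 (adjusted p = 0.622) and FOSL1 at 88.1 ± 4.17 CPM in A10 and 94.7 ± 3.83 CPM in T1 (adjusted p = 0.165).

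FGF, Eph, WNT, Notch and TGF-beta genes held pairs that moved apart. Beside FGFR3, FGFR2 fell from 11.2 ± 1.49 to 4.75 ± 0.555 CPM, and the decoy receptor FGFRL1 rose from 20.3 ± 1.75 to 73.9 ± 4.19 CPM. FGFR1 stood at 10.7 ± 0.853 CPM in A10 and 12.2 ± 2.51 CPM in T1 (adjusted p = 0.324). Of 21 Eph receptors and ephrins, 14 passed the filter, 10 rose and 4 fell, with a median log2 fold change of 0.68; EPHA2 rose from 223 ± 16.9 to 467 ± 11.5 CPM and the ephrin EFNB3 fell from 7.64 ± 1.35 to 0.395 ± 0.223 CPM. Of 47 WNT ligands, receptors and feedback genes, 32 passed the filter, 12 rose and 15 fell, with a median log2 fold change of -0.26. The sign of that median was not kept under every alternative. The ligand WNT5A, which acts mainly without beta-catenin, fell from 21.9 ± 1.88 to 0.782 ± 0.282 CPM and the ligand WNT7B rose from 3.04 ± 0.248 to 42.3 ± 2.73 CPM. The nuclear factor TCF7 rose from 2.56 ± 0.473 to 32.6 ± 1.28 CPM. The secreted inhibitor DKK1 rose from 65.9 ± 2.795 to 158 ± 9.64 CPM. Of 22 Notch genes, 17 passed the filter, 10 rose and 3 fell, with a median log2 fold change of 0.36. The receptor NOTCH3 stood at 8.22, 12.4 and 9.26 CPM in A10 and 81.1, 72.9 and 74.9 CPM in T1 (log2 fold change 2.96, SE 0.11, adjusted p = 6.30e-17). It was higher in all 3 T1 libraries than in any of A10. Of 44 TGF-beta and BMP genes, 38 passed the filter, 18 rose and 12 fell, with a median log2 fold change of 0.11. The BMP antagonist NOG rose from 1.304 ± 0.277 to 19.4 ± 2.22 CPM and the activin chain INHBA from 5.07 ± 0.902 to 28.9 ± 1.38 CPM. The divergent ligand GDF15 rose from 177 ± 15.8 to 625 ± 15.5 CPM. The co-receptor TGFBR3 fell from 18.97 ± 2.43 to 5.29 ± 0.195 CPM.

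Most tested genes fell in T1 in the lists of NF-kB, the transcription factor of inflammatory signalling, of chemokines, and of colony-stimulating factors and interleukins, while the IL-1 family was divided. The NF-kB list holds 20 genes, not all of them subunits or feedback regulators. Of these, 18 passed the filter, 2 rose and 13 fell, with a median log2 fold change of -0.74. The adhesion receptor gene ICAM1 stood at 49.97, 56.9 and 59.7 CPM in A10 and 0.1503, 0.301 and 0.259 CPM in T1 (log2 fold change -7.83, SE 0.18, adjusted p = 4.07e-21). NFKBIA, the inhibitor that NF-kB induces, stood at 177, 177 and 178 CPM in A10 and 54.5, 53.6 and 43.5 CPM in T1 (log2 fold change -1.81, SE 0.07, adjusted p = 3.70e-16), and the feedback gene TNFAIP3 fell from 90.5 ± 0.578 to 22.5 ± 3.75 CPM. The subunit NFKB1 fell from 111 ± 2.94 to 61.5 ± 2.34 CPM. RELA stood at 83.7 ± 3.88 CPM in A10 and 85.03 ± 1.38 CPM in T1 (adjusted p = 0.784). TNFAIP2 rose from 91.4 ± 7.704 to 259.5 ± 2.97 CPM. ICAM1, NFKBIA and TNFAIP3 were lower in every T1 library than in any A10 library, while the subunit RELA was not called.

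Of 22 chemokine genes, 14 passed the filter, 4 rose and 9 fell, with a median log2 fold change of -1.36. CXCL1, a neutrophil attractant, stood at 289, 276 and 312 CPM in A10 and 15.9, 17.5 and 16.9 CPM in T1 (log2 fold change -4.12, SE 0.07, adjusted p = 5.54e-23), and interleukin 8 (IL8) fell from 119 ± 10.7 to 15.3 ± 1.46 CPM. CX3CL1, a membrane-bound chemokine, rose from 0.147 ± 0.128 to 6.31 ± 0.571 CPM. Of 29 colony-stimulating factors, interleukins and acute-phase genes, 21 passed the filter, 6 rose and 13 fell, with a median log2 fold change of -1.39. The acute-phase gene SAA1 stood at 1106, 1041 and 1271 CPM in A10 and 96.4, 96.5 and 86.8 CPM in T1 (log2 fold change -3.61, SE 0.07, adjusted p = 5.69e-22), though SAA1 and SAA2 share reads. LIF, a cytokine of the interleukin 6 family, rose from 63.3 ± 1.195 to 248 ± 10.1 CPM, while the shared receptor chain IL6ST fell from 212 ± 24.7 to 79.8 ± 5.03 CPM. Of 20 genes of the IL-1 family and its receptors, 16 passed the filter, 7 rose and 6 fell, with a median log2 fold change of 0.39, a median whose sign was not kept under every alternative. The cytokine IL1A fell from 226 ± 15.7 to 40.01 ± 1.58 CPM and IL1B from 117 ± 2.14 to 18.5 ± 0.903 CPM. The receptor antagonist IL1RN rose from 16.4 ± 1.82 to 60.7 ± 1.62 CPM. Of 27 complement genes, 17 passed the filter, 2 rose and 10 fell, with a median log2 fold change of -0.71. The classical pathway proteases fell, C1R from 27.7 ± 2.31 to 1.26 ± 0.0841 CPM and C1S from 21.3 ± 1.002 to 0.746 ± 0.546 CPM. The alternative pathway factor CFB fell from 51.5 ± 1.13 to 4.74 ± 0.1304 CPM. Of 31 TNF superfamily genes, 26 passed the filter, 8 rose and 14 fell, with a median log2 fold change of -0.28. At least a 2-fold difference was seen in 7 of those that fell and 3 of those that rose. Against the direction of most, the death receptor TNFRSF21 rose from 51.1 ± 2.96 to 307 ± 15.5 CPM.

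Interferon-stimulated genes mostly rose and antigen presentation genes, which are often induced together with them, mostly fell. Of 42 interferon-stimulated genes, 42 passed the filter, 30 rose and 7 fell, with a median log2 fold change of 0.79. IFI27 stood at 5.83, 5.68 and 9.33 CPM in A10 and 58.8, 56.2 and 50.7 CPM in T1 (log2 fold change 3.00, SE 0.14, adjusted p = 3.12e-13). IFI6 stood at 21.1, 20.2 and 20.96 CPM in A10 and 121, 102 and 109.8 CPM in T1 (log2 fold change 2.41, SE 0.08, adjusted p = 5.07e-18). BST2, the tetherin that holds virus particles at the membrane, fell from 59.7 ± 4.78 to 10.5 ± 2.27 CPM. OAS3 stood at 85.2 ± 2.87 CPM in A10 and 86.99 ± 5.54 CPM in T1 (adjusted p = 0.703). For IFI27 and IFI6 all T1 libraries were above all A10 libraries, whereas BST2 ran the other way. Of 24 genes of MHC class I and II presentation, 18 passed the filter, 0 rose and 14 fell, with a median log2 fold change of -0.68. HLA-B stood at 312, 317 and 336 CPM in A10 and 56.6, 54.5 and 53.9 CPM in T1 (log2 fold change -2.55, SE 0.06, adjusted p = 1.04e-20). HLA genes share reads and are polymorphic, so their counts are uncertain. Of their partners with unique sequence, B2M fell from 819 ± 42.7 to 498 ± 4.82 CPM and the immunoproteasome subunit PSMB9 from 7.61 ± 1.31 to 1.23 ± 0.307 CPM. TAP2 stood at 101 ± 5.21 CPM in A10 and 108 ± 7.02 CPM in T1 (adjusted p = 0.192). In the APOBEC3 cluster of cytidine deaminases APOBEC3F had no count in T1 and was at least 268-fold lower, APOBEC3B fell from 21.6 ± 0.635 to 8.33 ± 1.19 CPM and APOBEC3C rose from 97.1 ± 6.65 to 116 ± 6.201 CPM.

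Promoters of 5 genes from these groups are shown, because genes that carry the same response element differed in direction between the lines. Each is the RefSeq sequence (GRCh38.p14) from 250 bases before to 50 after the first base of the transcript, 5′ to 3′ on the gene's strand, and capitals mark matches on either strand to the interferon response element (GAAA, 2 bases of any kind, then GAAA) or the NF-kB site (GGG, 2 bases of any kind, then TTTCC).
IFI6, chr1:27672143-27672442, minus strand: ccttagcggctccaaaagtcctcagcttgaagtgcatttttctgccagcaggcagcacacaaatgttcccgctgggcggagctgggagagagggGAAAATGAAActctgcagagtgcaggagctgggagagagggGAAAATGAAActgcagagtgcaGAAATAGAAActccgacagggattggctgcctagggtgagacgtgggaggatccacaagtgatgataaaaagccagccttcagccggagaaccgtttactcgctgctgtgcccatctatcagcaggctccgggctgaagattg
BST2, chr19:17405581-17405880, minus strand: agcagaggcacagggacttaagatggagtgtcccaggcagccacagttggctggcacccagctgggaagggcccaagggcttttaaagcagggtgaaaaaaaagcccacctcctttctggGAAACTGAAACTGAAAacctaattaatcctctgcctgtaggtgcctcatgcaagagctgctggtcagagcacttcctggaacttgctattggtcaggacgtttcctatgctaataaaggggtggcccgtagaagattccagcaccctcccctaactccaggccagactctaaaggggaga
B2M, chr15:44711267-44711566, plus strand: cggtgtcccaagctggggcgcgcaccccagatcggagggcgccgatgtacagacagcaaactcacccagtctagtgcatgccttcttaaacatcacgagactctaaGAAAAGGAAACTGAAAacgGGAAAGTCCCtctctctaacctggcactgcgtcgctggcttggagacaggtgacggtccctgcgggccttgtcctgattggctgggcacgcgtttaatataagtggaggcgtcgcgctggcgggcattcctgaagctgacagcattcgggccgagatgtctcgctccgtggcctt
CXCL1, chr4:73869143-73869442, plus strand: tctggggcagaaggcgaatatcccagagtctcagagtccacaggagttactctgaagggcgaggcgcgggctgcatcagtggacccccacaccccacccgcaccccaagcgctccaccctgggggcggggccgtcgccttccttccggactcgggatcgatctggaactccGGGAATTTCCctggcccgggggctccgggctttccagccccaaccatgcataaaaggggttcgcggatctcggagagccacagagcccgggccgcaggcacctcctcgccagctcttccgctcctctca
NFKBIA, chr14:35404700-35404999, minus strand: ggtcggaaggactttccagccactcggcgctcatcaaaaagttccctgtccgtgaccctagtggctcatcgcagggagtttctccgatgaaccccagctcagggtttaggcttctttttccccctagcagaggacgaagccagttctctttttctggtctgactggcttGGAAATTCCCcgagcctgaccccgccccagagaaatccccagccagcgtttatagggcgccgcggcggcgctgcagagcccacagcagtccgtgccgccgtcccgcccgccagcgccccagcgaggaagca

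The IFI6 promoter, of a gene that rose, held 3 matches to the interferon element, at -156, -115 and -93 from the start. BST2, which fell, held an overlapping pair beginning at -130 and -124. B2M, which also fell, held such a pair beginning at -144 and -138 and an NF-kB match at -125. CXCL1 and NFKBIA held 1 NF-kB match each, at -79 and -81. Over all 35116 promoters of the table, 3.57% held the interferon element and 1.91% the NF-kB site. Counting a gene once where any of its promoters matched, 4.09% and 2.89% of the 10709 tested genes with a promoter did. Counted the same way, the interferon element stood in 23 of 32 interferon-stimulated genes with a promoter, in 14 of the 22 that rose and 5 of the 6 that fell, and in 9 of 18 presentation genes. The NF-kB site stood in 9 of 18 genes of the NF-kB list, 7 of the 11 that fell and 1 of the 2 that rose. It also stood in 6 of 18 chemokine genes. A match describes letters in this window and not a bound factor, and a gene with several promoters has more chances of one.

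**Figure D4:**
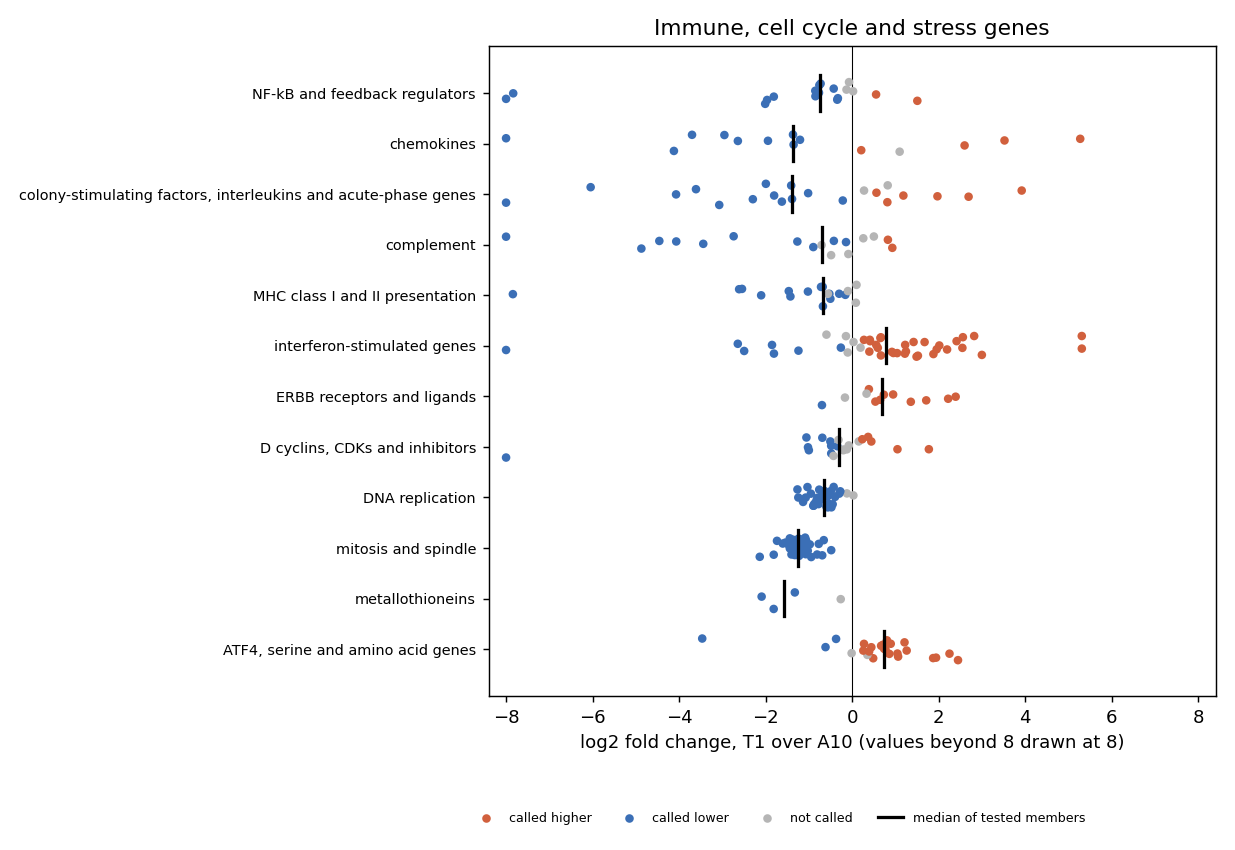
Log2 fold change (T1 over A10) of each tested member of 12 immune, cell cycle and stress lists, 1 point per gene; orange points were called higher, blue ones lower, grey ones not called, and black bars mark list medians. Interferon-stimulated genes have a median of 0.79 and presentation genes one of -0.68, and all 40 mitosis genes lie left of 0.

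Cell division genes fell while cyclin D1 rose. All 40 genes of mitosis and the spindle were tested and fell, with a median log2 fold change of -1.24. PLK1, the kinase of mitotic entry, stood at 129, 138 and 137 CPM in A10 and 50.95, 48.2 and 47.4 CPM in T1 (log2 fold change -1.46, SE 0.06, adjusted p = 1.88e-15). CENPF, a kinetochore gene, fell from 229 ± 20.7 to 52.1 ± 2.72 CPM. The spindle gene ASPM fell from 106 ± 5.38 to 30.2 ± 4.09 CPM and the kinase AURKB from 30.6 ± 3.17 to 10.5 ± 0.909 CPM. Of 34 DNA replication genes, 32 fell and none rose, with a median of -0.66. Thymidylate synthase (TYMS) fell from 149.8 ± 1.29 to 63.2 ± 3.09 CPM. The polymerase subunit POLD1 stood at 55.7 ± 8.91 CPM in A10 and 56.7 ± 1.69 CPM in T1 (adjusted p = 0.798). The 5 mitosis genes that lie in the stretches of chromosomes 1, 8, 9, 19 and 20 given below had a median of -1.74, and the 35 elsewhere one of -1.21 with all 35 called lower.

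Of 23 D cyclins, CDKs and inhibitors, 21 passed the filter, 5 rose and 9 fell, with a median log2 fold change of -0.31. CCND1, which drives entry into the cycle downstream of ERK, stood at 352, 369.95 and 367 CPM in A10 and 1238, 1246 and 1237 CPM in T1 (log2 fold change 1.77, SE 0.05, adjusted p = 6.25e-19). The CDK inhibitor CDKN1A, known as p21, stood at 399, 413 and 426 CPM in A10 and 882, 842 and 836 CPM in T1 (log2 fold change 1.05, SE 0.05, adjusted p = 2.26e-14). Both rose in every T1 library, in contrast to CCND2, which was nearly lost. CDK2 fell from 44.6 ± 1.35 to 27.6 ± 1.53 CPM. The pocket protein RB1 fell from 85.3 ± 5.55 to 61.03 ± 3.41 CPM. CDKN1B stood at 28.6 ± 0.652 CPM in A10 and 24.8 ± 1.17 CPM in T1 (adjusted p = 0.0529). Of 26 p53 targets, 26 passed the filter, 15 rose and 7 fell, with a median log2 fold change of 0.21. BAX rose from 71.3 ± 5.23 to 115 ± 10.9 CPM and BTG2 fell from 81.9 ± 6.49 to 49.2 ± 3.41 CPM.

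The promoters of PLK1 and CENPF are shown, with capitals for the CHR element TTTGAA, a motif of mitotic genes, and for the CCAAT box, on either strand.
PLK1, chr16:23678639-23678938, plus strand: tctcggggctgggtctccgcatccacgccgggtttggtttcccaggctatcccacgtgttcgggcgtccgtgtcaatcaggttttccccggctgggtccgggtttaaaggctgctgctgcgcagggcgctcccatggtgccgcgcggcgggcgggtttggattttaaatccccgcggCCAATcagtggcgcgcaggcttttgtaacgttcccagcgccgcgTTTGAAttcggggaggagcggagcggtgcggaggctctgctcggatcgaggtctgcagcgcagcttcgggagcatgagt
CENPF, chr1:214602945-214603244, plus strand: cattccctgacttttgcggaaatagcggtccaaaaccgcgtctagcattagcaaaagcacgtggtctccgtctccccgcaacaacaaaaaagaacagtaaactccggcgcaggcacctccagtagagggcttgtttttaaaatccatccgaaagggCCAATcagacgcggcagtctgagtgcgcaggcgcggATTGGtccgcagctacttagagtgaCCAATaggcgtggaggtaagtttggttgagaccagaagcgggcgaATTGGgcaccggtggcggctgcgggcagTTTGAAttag

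PLK1 held the CHR element at -29 and a CCAAT box at -73. CENPF held CCAAT boxes on both strands and the CHR element at 40, after the start. The CHR element stood in 27 of 35 mitosis genes with a promoter and in 1 of 30 replication genes, against 15.2% of all promoters and 13.9% of tested genes with one. The CCAAT box stood in 25 of those 35 and 18 of those 30, against 34.6% of all promoters and 43.4% of tested genes with one. The mitosis genes and the replication genes, whose median fall was smaller, therefore differed in how many hold the CHR letters; the difference was not tested.

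Among metabolic lists, genes of the ATF4 response and amino acid synthesis mostly rose and cholesterol genes mostly fell. Of 30 genes of PPARG, lipid droplets and lipid uptake, 21 passed the filter, 12 rose and 4 fell, with a median log2 fold change of 0.31. PPARG, the nuclear receptor of fat storage, stood at 5.43, 4.64 and 5.47 CPM in A10 and 37.3, 44.7 and 45.9 CPM in T1 (log2 fold change 3.03, SE 0.12, adjusted p = 1.07e-16). PLIN4, a droplet coat gene, rose from 9.099 ± 1.13 to 32.4 ± 3.96 CPM. Of 23 fatty acid genes, 20 passed the filter, 10 rose and 7 fell, with a median log2 fold change of 0.13. FADS2, a desaturase for polyunsaturated fatty acids, stood at 233, 265 and 257 CPM in A10 and 14.6, 15.4 and 14.98 CPM in T1 (log2 fold change -4.07, SE 0.07, adjusted p = 9.54e-23). The synthase FASN stood at 1124 ± 152 CPM in A10 and 1212 ± 9.71 CPM in T1 (adjusted p = 0.193). The acyl-CoA synthetase ACSL1 rose from 278 ± 1.56 to 769.6 ± 31.5 CPM. ACACB, the mitochondrial acetyl-CoA carboxylase, had no count in T1 and was at least 176-fold lower. Of 24 cholesterol genes, 23 passed the filter, 4 rose and 16 fell, with a median log2 fold change of -0.31. SREBF1, a regulator of lipid synthesis, rose from 250.3 ± 19.6 to 681 ± 14.7 CPM. HMGCS1, an early enzyme of sterol synthesis, fell from 237 ± 7.97 to 89.5 ± 4.21 CPM.

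Of 26 genes of the ATF4 response and of serine and amino acid synthesis, 25 passed the filter, 20 rose and 3 fell, with a median log2 fold change of 0.74. Asparagine synthetase (ASNS) rose from 114 ± 4.39 to 272 ± 4.14 CPM and PSAT1, of serine synthesis, from 223 ± 9.82 to 467 ± 5.58 CPM. CBS, of the transsulfuration pathway, fell from 15.4 ± 2.41 to 1.39 ± 0.272 CPM. The metal-binding metallothionein MT2A stood at 5892, 5544 and 7184 CPM in A10 and 1529, 2089.9 and 1679 CPM in T1 (log2 fold change -1.81, SE 0.17, adjusted p = 4.87e-04), and 3 of the 4 tested metallothioneins fell; these genes are similar in sequence and can share reads. Of 30 NRF2 targets and aldo-keto reductases, 27 passed the filter, 13 rose and 10 fell, with a median log2 fold change of -0.01. The transporter ABCC3 rose from 116 ± 6.601 to 315 ± 7.19 CPM and the ferritin light chain FTL fell from 578 ± 10.2 to 267 ± 3.57 CPM. FTH1 stood at 9942 ± 231 CPM in A10 and 9879.98 ± 218 CPM in T1 (adjusted p = 0.884). Of 28 glycolysis and pentose phosphate genes, 28 passed the filter, 14 rose and 5 fell, with a median log2 fold change of 0.11. The isomerase GPI rose from 522 ± 15.6 to 834 ± 9.46 CPM. The glucose transporter SLC2A3 fell from 13.5 ± 0.258 to 0.427 ± 0.341 CPM. LDHA stood at 2001 ± 58.3 CPM in A10 and 1949.5 ± 67.1 CPM in T1 (adjusted p = 0.544). Of 25 hypoxia genes, 25 passed the filter, 12 rose and 9 fell, with a median log2 fold change of 0.30. Carbonic anhydrase 12 (CA12) fell from 153 ± 2.24 to 43.8 ± 1.02 CPM and P4HA1 rose from 47.3 ± 4.01 to 109 ± 2.901 CPM.

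The medians of housekeeping families stayed near that of all genes. Of 67 cytosolic ribosomal proteins, 67 passed the filter, 28 rose and 10 fell, with a median log2 fold change of 0.07. Calls in this family thus leaned towards rises, with 19 to 29 that rose and 3 to 12 that fell under the alternatives. Its summed level was 66936 CPM in A10 and 77122 CPM in T1. Of 46 nuclear-encoded respiratory chain genes, 46 passed the filter, 10 rose and 18 fell, with a median log2 fold change of -0.04. RPS6, which lies on the short arm of chromosome 9, stood out among the former, rising from 1394 ± 81.4 to 3091 ± 63.5 CPM (log2 fold change 1.15). The 11 ribosomal protein genes in the stretches given below had a median of 0.62 and the 56 elsewhere one of 0.05. Of 27 ER chaperone and heat shock genes, 27 passed the filter, 8 rose and 14 fell, with a median log2 fold change of -0.16. The chaperone HSPA5 stood at 606 ± 30.2 CPM in A10 and 609 ± 18.3 CPM in T1 (adjusted p = 0.938). Of 39 HOX genes, 20 passed the filter, 5 rose and 10 fell, with a median log2 fold change of -0.41. HOXA7 rose from 0.162 ± 0.0104 to 11.4 ± 0.702 CPM. Its neighbours in the cluster went the other way, HOXA5 from 37.4 ± 1.46 to 12.9 ± 1.38 CPM and HOXA4 from 8.78 ± 0.282 to 3.53 ± 0.4096 CPM.

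Genes without a count in 1 line were counted where the other line averaged at least 1 CPM, with a gene at 0 allowing up to 0.0346 CPM in A10 or 0.0377 CPM in T1, the level of 3 counts over the line (counting error only). There were 40 such genes at 0 in A10, 32 of them protein-coding, and 98 at 0 in T1, 90 of them protein-coding. Losses of this kind in T1 were thus more numerous than gains, although counts of genes that rose and fell were nearly equal overall. Of the 94 at 0 in T1 that have a position, 11 lie on the X chromosome (11.7%, where 3.26% of tested genes lie) and 13 on chromosome 19 (13.8%, against 6.98%). Of the 35 at 0 in A10 that have a position, 4 lie on the X chromosome (11.4%), so its share was much alike in both sets, and 2 on chromosome 19 (5.71%). Chromosome 7, where 4.87% of tested genes lie, held 6 of those 35 (17.1%) and 2 of the 94 at 0 in T1 (2.13%).

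Position along the chromosomes was described with genes in windows of 10 Mb (GRCh38.p14 positions, 13286 tested genes). The windows of largest median formed a few runs, each picked from these same values and so given without a test. A run joined neighbouring windows, among those with at least 20 tested genes, whose median was at least 0.4 in the same direction. On chromosome 1 from 140000001 to 250000000, on the long arm, 616 genes were tested, 455 fell and 62 rose, with a median log2 fold change of -0.72. The 3 T1 libraries had medians of -0.70, -0.69 and -0.69 there against the A10 mean, so the shift was alike in each. On chromosome 9 from 1 to 40000000, on the short arm, 98 of 136 genes rose and 14 fell, with a median of 0.70. On chromosome 19 from 30000001 to 60000000, 308 of 497 genes rose and 59 fell, with a median of 0.50. Chromosome 20 had a smaller shift over its whole length, with 191 of 353 genes lower and a median of -0.26. Chromosome 8 from 120000001 to 130000000 held 33 tested genes, of which 20 fell, with a median of -0.54. The other windows from 100000001 to 150000000 did not meet the rule but were lower too, with medians of -0.37, -0.42, -0.47 and -0.35. In the first of them 18 of 27 genes fell, and in the last 47 of 79. Genes outside the runs and chromosome 20, those other windows of chromosome 8 among them, numbered 11651. They had a median of -0.01, with 3351 that rose and 3363 that fell. DNA copy number was not analysed here, so its part in these shifts was not tested.

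**Figure D5:**
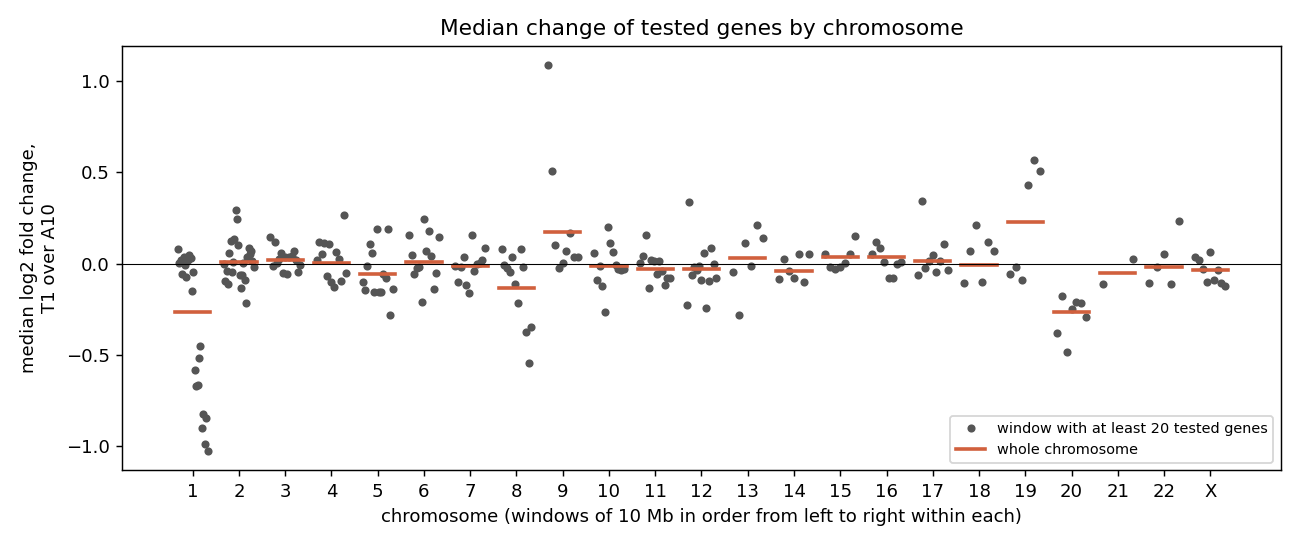
Median log2 fold change (T1 over A10) of tested genes in each window of 10 Mb that held at least 20 (grey points, in order within a chromosome) and over each whole chromosome (orange bars). The long arm of chromosome 1 lies below 0, the first windows of chromosome 9 and the last of chromosome 19 lie above it, and chromosome 20 lies below it throughout.

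Gene groups overlapped these stretches to different extents. The 13 S100 genes there and all 9 kallikreins have been named, and 5 of the 11 mucin and CEACAM genes lie inside with a median of 4.87, against 4.59 for the 6 outside. All 22 collagens, all 18 presentation genes and all 12 ERBB genes that were tested lie outside. The NF-kB list had 15 of its 18 members outside, 11 of them lower, with a median of -0.77.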

How the data were processed

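The deposited values are estimated counts per gene in 12 libraries, which the authors made with Salmon, per the file headers, and did not scale between libraries. The submitters' processing notes name GRCh38 and limma with no role, and the annotation and the Salmon version are not given in the sources used here. Of its values in the 6 libraries compared, 10.2% were not whole; rounding them moved each value by at most 0.5. The 11402 rows without a count in these libraries and genes failing edgeR's filterByExpr were not tested. Counts were scaled with TMM and tested with edgeR 4.0.16 (R 4.3.3), a robust quasi-likelihood fit with a mean per line, two-sided, Benjamini-Hochberg adjusted over all 13770 genes tested. The biological coefficient of variation was 8.38%.

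Positions and promoters are from RefSeq GRCh38.p14, in which 23149 rows were found under their symbol and 1741 under a synonym, and 4854 were not found. Bounds for genes at 0 use 3 counts over the line; ratios for genes with 1 to 3 counts have an exact 95% interval. Members, 66 gene lists, motifs (6 searched), alternatives and tests were chosen with earlier results of these data known. Named were HRAS; the 12 largest rises and falls among called protein-coding genes of at least 10 CPM whose lines did not overlap; the 8 largest per direction of at least 500 CPM; and, per list, up to 8 called members of at least 5 CPM by size of change and up to 3 of highest CPM not called. Lists of 15 or fewer genes may be given in full. A few results under that rule are not reported here. Named outside it, after their values were seen, are ESR1, PGR and GRHL3. The replicate numbers did not pair the libraries, as the correlations of deviations between same-numbered libraries were -0.09, 0.01 and -0.10. In counts simulated for this comparison over 13323 genes, 95% of 2-fold and 100% of 4-fold changes were recovered and 5.80% of calls were false. Only a small part of those genes was changed, equally often up and down, and each averaged at least 1 CPM in A10. In the data 59.3% of genes were called, so these rates need not hold there. DESeq2 1.42.0 and limma 3.58.1 gave alternatives. Tables and figures used Python 3.11.15, pandas 2.3.3, numpy 2.4.6 and matplotlib 3.10.9.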

Additional observations from a re-analysis of the deposited data

How the results depend on the processing

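Counts of called genes held within 1.5 times under all 15 alternatives. With a library left out, 3635 to 3875 genes rose and 3820 to 4039 fell, and 1271 to 1354 and 1303 to 1391 did so at least 2-fold; the other alternatives gave 3751 to 4099, 3727 to 4462, 1134 to 1454 and 1140 to 1547. With the replicate number as a block (replicate block), 3809 genes rose and 4029 fell, 1257 and 1322 of them at least 2-fold; no named gene changed its call under the block, and as the numbers did not pair the libraries this fit carries no further weight. Calls were 47.0% to 50.2% higher under any alternative. Of 196 named genes that were called, 195 kept their call under every alternative that tested them, S100A2 being the exception. Called genes were mostly named for the size of their change in the main fit, so this says little of the other calls. Among 16 not called, CDKN1B fell under upper-quartile scaling, and FASN rose and S100A10 fell without A10 replicate 2. Signs of the median were not kept for the lists of cadherins, RAS GTPases, FGF genes, WNT genes (-0.37 to 0.05), the IL-1 family (-1.04 to 0.61) and NRF2 targets, and were kept for the stretches of chromosomes 1, 8, 9, 19 and 20. Medians of 21 of the 66 lists kept their sign but moved by over 1.5 times under at least 1 alternative. Of those given above they include metalloproteinases (-0.62 to -0.04), matricellular genes (-0.63 to -0.18), laminins (-0.26 to -0.11), integrins (0.09 to 0.18), EMT factors (-0.41 to -0.19), AP-1 genes (0.21 to 0.51), TGF-beta genes (0.09 to 0.20), hypoxia genes (0.19 to 0.37) and D cyclins and CDKs (-0.33 to -0.20). Leaving out the rRNA rows, which were high in T1 replicate 1, gave 4029 that rose and 4127 that fell. Depth limits genes near 1 CPM: without a filter 18342 genes were tested, and with a minimum of 1 CPM in 3 libraries 12705.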

Other observations

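Several groups were not described above. Of 26 DNA methylation and polycomb genes, 25 passed the filter, 2 rose and 11 fell, and the median log2 fold change was -0.20. Of 14 gap junction and pannexin genes, 10 passed the filter, 2 rose and 6 fell. The connexin gene GJA5 rose from 6.23 ± 0.634 to 35.5 ± 0.463 CPM, and GJA3 fell from 15.9 ± 0.248 to 4.29 ± 1.42 CPM.

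The set of zinc finger genes was chosen after its values were seen. The 192 tested genes named ZNF with a number on chromosome 19, nearly all transcriptional regulators, rose more often than they fell, with 89 higher, 38 lower and a median log2 fold change of 0.41. Within the same set, 18 genes (9.38%) were called at least 8-fold lower in T1, against 2.82% of all tested genes, and 8 had no count in T1 while averaging at least 1 CPM in A10. Of the 237 tested ZNF genes elsewhere, 29 rose and 70 fell, with a median of -0.12. The 736 tested chromosome 19 genes outside the ZNF set had a median of 0.17, with 331 higher and 160 lower. Their shares higher (44.97%) and lower (21.7%) were near those of the ZNF genes there (46.4% and 19.8%).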
